A study of Mus musculus with 44 samples.

Results

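Nuclear receptors, a superfamily of transcription factors that bind small lipophilic ligands or act without a known one, were followed through 2 dietary models of nonalcoholic steatohepatitis (NASH) in mice. The set was a list of 38 gene symbols, matched to the deposited table of 20105 gene identifiers. All 38 had a row, 35 named by the authors' own comparison table and 3 (Nr2f1, Nr4a3 and Vdr) by RefSeq. The list leaves out 11 of the 49 nuclear receptor genes considered here, and these 11 are described further down with the receptors' partners and targets.

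The 44 libraries came from 22 male HEP-INTACT mice, in which hepatocyte nuclei carry a tag and can be pulled out of a liver homogenate. From each mouse, RNA of the pulled-down nuclei (hepatocyte nuclei) and RNA of nuclei from the whole liver were sequenced. One study fed an FPC diet for 20 weeks, the other fed CDAHFD for 7 weeks, and low-fat diet controls were kept for the same periods. Each study had 4 control mice, 4 with mild NASH and 3 with advanced NASH, and single mice are named here by group and number as in the labels, such as Advanced_6826. FPC is used in the field as short for a diet with fructose, palmitate and cholesterol, and CDAHFD for a high-fat diet with defined amino acids and no added choline. All mice, controls included, carried the nuclear tag. The promoter behind the tag and the ages of the mice are not given in the sources used here. Diseased mice were sorted into mild and advanced by histology, fibrosis marking the advanced group, so stage was not assigned at random. Diet and feeding time changed together between the studies and cannot be told apart.

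As background, most of these receptors bind DNA through a zinc finger domain that reads the half-site AGGTCA or a close form of it, singly, as a pair of like receptors, or as a pair with a retinoid X receptor. Without ligand many of them hold corepressors on their target genes, and ligand exchanges these for coactivators. In the liver they set bile acid, lipid, glucose and drug metabolism according to the levels of bile acids, fatty acids, oxysterols, retinoids, hormones and foreign compounds.

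For 5 of the genes that the results turn on, the DNA just before the start is shown first, because receptor genes can themselves carry the half-site. RefSeq start windows (build GRCm38.p6) were found for 35 of the 38 members, and the 250 bases before the start are printed 5′ to 3′ on the gene's strand. Capitals mark the motif named for each gene. In Rarg it is the half-site AGGTCA, which lies on the other strand and so reads TGACCT, 225 to 220 bases before the start.
Rarg, chr15:102257523-102257772, minus strand: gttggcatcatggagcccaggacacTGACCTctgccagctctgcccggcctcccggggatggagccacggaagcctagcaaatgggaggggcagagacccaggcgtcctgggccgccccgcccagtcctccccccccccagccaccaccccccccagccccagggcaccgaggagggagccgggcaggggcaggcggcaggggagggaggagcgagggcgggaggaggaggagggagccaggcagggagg
In Rarb the capitals mark a direct repeat, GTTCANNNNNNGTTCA, 52 to 37 bases before the start. It has the form of the retinoic acid response element already known from this gene, so the match was foreseen and its rarity is no support. Of the 35 members' windows 1 held it (2.86%), that of Rarb. Of all 32851 windows of this length 22 (0.067%) held it on either strand. This RefSeq start lies 507 kb inside the interval over which the authors counted Rarb.
Rarb, chr14:16575477-16575726, minus strand: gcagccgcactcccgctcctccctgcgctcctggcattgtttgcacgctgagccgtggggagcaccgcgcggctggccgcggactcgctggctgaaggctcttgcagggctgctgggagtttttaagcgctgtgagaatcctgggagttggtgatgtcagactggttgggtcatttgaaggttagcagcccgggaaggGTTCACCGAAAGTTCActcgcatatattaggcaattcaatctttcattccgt
Thrb carries AGGTCA on its own strand 184 to 179 bases before the start.
Thrb, chr14:17660710-17660959, plus strand: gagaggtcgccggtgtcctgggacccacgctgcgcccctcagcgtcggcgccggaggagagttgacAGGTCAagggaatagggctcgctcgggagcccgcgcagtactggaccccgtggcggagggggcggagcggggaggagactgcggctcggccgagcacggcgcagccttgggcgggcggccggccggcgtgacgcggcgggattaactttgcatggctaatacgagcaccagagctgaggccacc
Esrrg and Nr1i3, the members that fell from mild to advanced disease in both diets, both carry TGACTCA, the AP-1 motif, 42 to 36 bases before the start in Esrrg and on the other strand (TGAGTCA) 109 to 103 bases before it in Nr1i3.
Esrrg, chr1:187608756-187609005, plus strand: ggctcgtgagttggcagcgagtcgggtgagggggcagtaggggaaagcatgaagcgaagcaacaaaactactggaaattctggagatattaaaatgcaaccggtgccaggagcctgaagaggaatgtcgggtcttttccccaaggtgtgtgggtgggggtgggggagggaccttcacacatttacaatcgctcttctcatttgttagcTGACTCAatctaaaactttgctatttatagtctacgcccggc
Nr1i3, chr1:171213720-171213969, plus strand: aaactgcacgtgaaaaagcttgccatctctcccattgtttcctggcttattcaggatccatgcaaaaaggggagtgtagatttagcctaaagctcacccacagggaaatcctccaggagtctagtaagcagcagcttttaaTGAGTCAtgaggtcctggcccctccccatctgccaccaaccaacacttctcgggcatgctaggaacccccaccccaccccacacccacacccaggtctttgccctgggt
Searched on both strands, AGGTCA was present in 6 of the 35 members' windows (Nr1d2, Nr1h4, Nr5a2, Pparg, Rarg and Thrb; 17.1%) and in 14.0% of all windows. TGACTCA was present in 2 of 35 (5.71%) and in 4.46% of all. The other motifs searched were CCAAT (11 members, 31.4%, against 33.8%), TATAAA (4 members, 11.4%, against 12.4%) and CACGTG (2 members, Nr0b2 and Nr1i3, 5.71%, against 6.02%). These matches describe letters in a window and are no evidence of binding.

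Sequencing gave 12.1 to 33.1 M counts per library (median 22.8 M). Levels are CPM, counts relative to the library total, scaled by TMM within a fraction and study (scaled CPM), and n is 4 control, 4 mild and 3 advanced mice throughout. Hepatocyte markers were abundant in the pulled-down nuclei: the summed level of 10 of them was 16850 (12760 to 24770) in FPC controls and 7481 (5660 to 9489) in advanced disease, and 17360 (12250 to 25690) and 8168 (6554 to 9690) with CDAHFD (mean and range, scaled CPM). Genes used as markers of other cell types were present too. In controls 8 cholangiocyte markers stood near the whole liver level, each fraction scaled on its own. Their sum was 439 beside 478 in whole liver with FPC and 365 beside 436 with CDAHFD. With disease it moved in hepatocyte nuclei from 439 (414 to 477) to 4162 (3508 to 5130) with FPC. With CDAHFD it moved from 365 (343 to 393) to 1504 (1217 to 1730), and all 8 rose in both diets. Markers of recruited macrophages rose in the same way (8 of 8, from 3.95 (3.34 to 4.79) to 70.9 (64.1 to 77.4) and from 5.34 (4.32 to 6.32) to 79.9 (66 to 92)), with Trem2 at 0 counts in the FPC controls. Of 8 Kupffer cell markers, 3 rose and 1 fell with FPC and 6 rose and 1 fell with CDAHFD, Timd4 being the one that fell (-2.09 ± 0.76 and -3.94 ± 0.75). For these marker counts, the shares over all genes tested were 26.5% higher and 20.4% lower with FPC, and 30.3% and 29.2% with CDAHFD. Endothelial markers in hepatocyte nuclei stood at 10% ± 0.641 (SD) of the whole liver level in FPC controls, 19.2% ± 4.66 in mild and 10.7% ± 1.96 in advanced disease, and at 12.1% ± 2.44, 15.1% ± 0.895 and 18.7% ± 2.22 with CDAHFD. In FPC controls, sums in hepatocyte nuclei and whole liver were 80.7 and 352 for stellate and 3.95 and 14.1 for recruited macrophage markers. Kupffer cell markers gave 19.3 and 203, and lymphocyte markers 7.64 and 99.7. In CDAHFD controls the 4 lists gave 161 and 469.5, 5.34 and 16.9, 16.8 and 241, and 5.335 and 103.9. Stellate and recruited macrophage markers were thus depleted less than the others. Scaling by library totals alone moves the median of all genes upward by 0.40 (FPC) and 0.49 (CDAHFD) on the log2 scale in advanced hepatocyte nuclei, so each disease change within a fraction is relative to the middle of all genes.

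Ppara, Nr1i3, Nr1d1, Hnf4a and Nr1h4 had the highest density of RNA per length of gene in control hepatocyte nuclei. In scaled CPM per kb counted, the FPC controls gave Ppara 30.1 ± 4.6 (SD), Nr1i3 26.4 ± 12.1, Nr1d1 20.5 ± 3.85, Hnf4a 20.1 ± 2.53, Nr1h4 18.6 ± 5.17 and Rxra 13.5 ± 1.65. None of the first 5 differed from the next gene in this order by more than its spread. In the CDAHFD controls the same 5 led, with Nr1i3 at 24.1 ± 3.38 and Ppara at 23.1 ± 6.57. At the other end of the 35 members with a counted length stood Rarb (0.104 ± 0.0316), Rarg (0.0979 ± 0.0138) and Hnf4g (0.0492 ± 0.0122) in the FPC controls. Reads fell over whole genes, introns included, so these densities are of nuclear RNA.

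Relative to the middle of all genes, more receptor genes were lower than higher in advanced hepatocyte nuclei, a split that scaling by library totals turned round. Of the 36 members with enough counts for a test (all but Nr2f1 and Vdr), 4 rose and 17 fell with FPC, and 4 rose and 16 fell with CDAHFD (edgeR quasi-likelihood test, adjusted p under 0.05). Over all genes tested, 26.5% were higher and 20.4% lower with FPC, and 30.3% and 29.2% with CDAHFD. The median log2 fold change of the members was -0.43 and -0.53, beside 0.00 for all genes in both diets. Scaled by library totals alone the split turned to 10 higher and 7 lower members with FPC (all genes 44.7% and 7.99%) and 11 higher and 8 lower with CDAHFD (all genes 49.6% and 12.3%), and the members' medians became -0.03 and -0.02. Of the members that fell, 7 of 17 and 8 of 16 kept their call under that scaling, none changed sign, and all 4 that rose in each diet kept theirs.

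In all, 16 members changed in the same direction in both diets: Rarg, Rarb and Pparg rose, and Nr0b2, Nr1h3, Nr1h4, Nr1i3, Nr2c1, Nr2c2, Nr3c1, Nr5a2, Nr6a1, Hnf4a, Ppara, Thrb and Esrrg fell. With library totals, Rarg, Rarb, Pparg, Thrb and Esrrg kept the call in both. Another 5 passed the test with FPC but not CDAHFD (Hnf4g rose, and Rxra, Esrra, Nr1d1 and Nr1d2 fell), 4 passed with CDAHFD but not FPC (Nr1h2 rose, and Nr3c2, Nr4a2 and Rora fell), and 11 passed in neither. No member was called in opposite directions. These classes were not counted over all genes, so no share stands beside them.

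**Figure D1:**
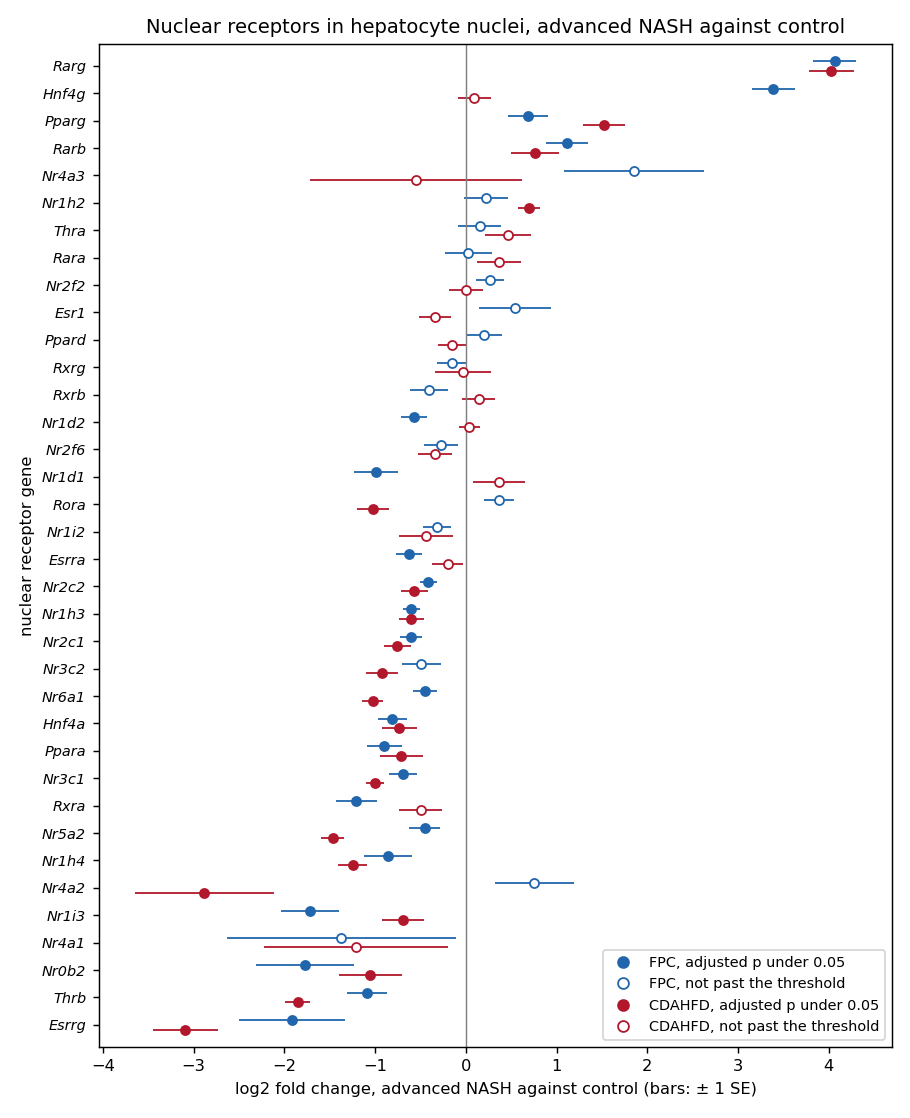
Log2 fold change of advanced disease against control in hepatocyte nuclei for the 36 tested nuclear receptor genes (x axis, log2 fold change; one line per gene), with FPC and CDAHFD as separate points, error bars of 1 standard error and filled points for adjusted p under 0.05. Rarg lies near 4 in both diets, Hnf4g only in FPC stands far to the right (3.39 against 0.09), and Esrrg, Nr1i3, Nr0b2 and Thrb lie to the left in both.

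Among the retinoid receptors, Rarg and Rarb rose and Rxra fell. Rarg encodes retinoic acid receptor gamma, a ligand-activated factor that pairs with retinoid X receptors. With FPC it was 2.43, 1.85, 2.51 and 2.05 scaled CPM in the 4 controls, 7.39, 9.76, 8.52 and 9.58 in mild and 23.9, 49.9 and 37.8 in advanced disease. CDAHFD gave 1.46, 1.36, 1.71 and 1.9 in controls, 15.8, 15.3, 19.1 and 16 in mild and 16, 34.3 and 28.3 in advanced disease. All diseased libraries lay above all controls in both diets, and with FPC the advanced ones also lay above all mild ones. The log2 fold change of advanced against control was 4.06 ± 0.24 (SE; adjusted p = 4.15e-08) with FPC and 4.03 ± 0.25 (adjusted p = 2.66e-07) with CDAHFD, and the diets' difference was 0.02 ± 0.32 (adjusted p = 0.976). The cholangiocyte and recruited macrophage markers given above moved with it, and their part in the rise was not tested.

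Rarb, retinoic acid receptor beta and itself a classical retinoic acid target, was 82.6, 53.8, 88.1 and 46.7 scaled CPM in the FPC controls and 167, 121 and 153 in advanced disease. For CDAHFD the values were 55.6, 41.1, 90.5 and 53 in controls and 96.6, 93.3 and 116 in advanced disease. Advanced libraries were above every control in both diets, by a narrow margin with CDAHFD. The changes were 1.11 ± 0.24 (adjusted p = 0.00174) and 0.76 ± 0.27 (adjusted p = 0.0274), and the second was lost without any one of Advanced_10104 and Advanced_9845 or Control_10113, Control_9862 and Control_9867 (adjusted p 0.05 to 0.0909). Of the stellate cell markers, 5 of 10 rose with FPC (all genes 26.5%), and 3 rose and 1 fell of 9 tested with CDAHFD (all genes 30.3% and 29.2%). Their summed level was 80.7 in FPC controls and 135 in advanced disease and 161 and 155 with CDAHFD (scaled CPM), and their part in the change of Rarb was not tested.

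Rara, the remaining retinoic acid receptor, was 33.9 ± 9.19 in FPC controls and 34.6 ± 10.4 in advanced disease (mean ± SD, scaled CPM), and 35.7 ± 8 and 46 ± 18.8 with CDAHFD, without passing the test in either. Rxra, the main retinoid X receptor of hepatocytes and the shared partner of many members, fell with FPC from 1159 ± 142 to 502 ± 98.7 (-1.21 ± 0.23, adjusted p = 0.000805). With CDAHFD it was 1481 ± 150 and 1049 ± 412 (-0.50 ± 0.24, adjusted p = 0.0886), and the difference between diets did not pass (0.76 ± 0.33, adjusted p = 0.131). Rxrb and Rxrg were low and passed in neither diet, at 14.3 ± 1.53 and 9.09 ± 1.15 in FPC controls.

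**Figure D2:**
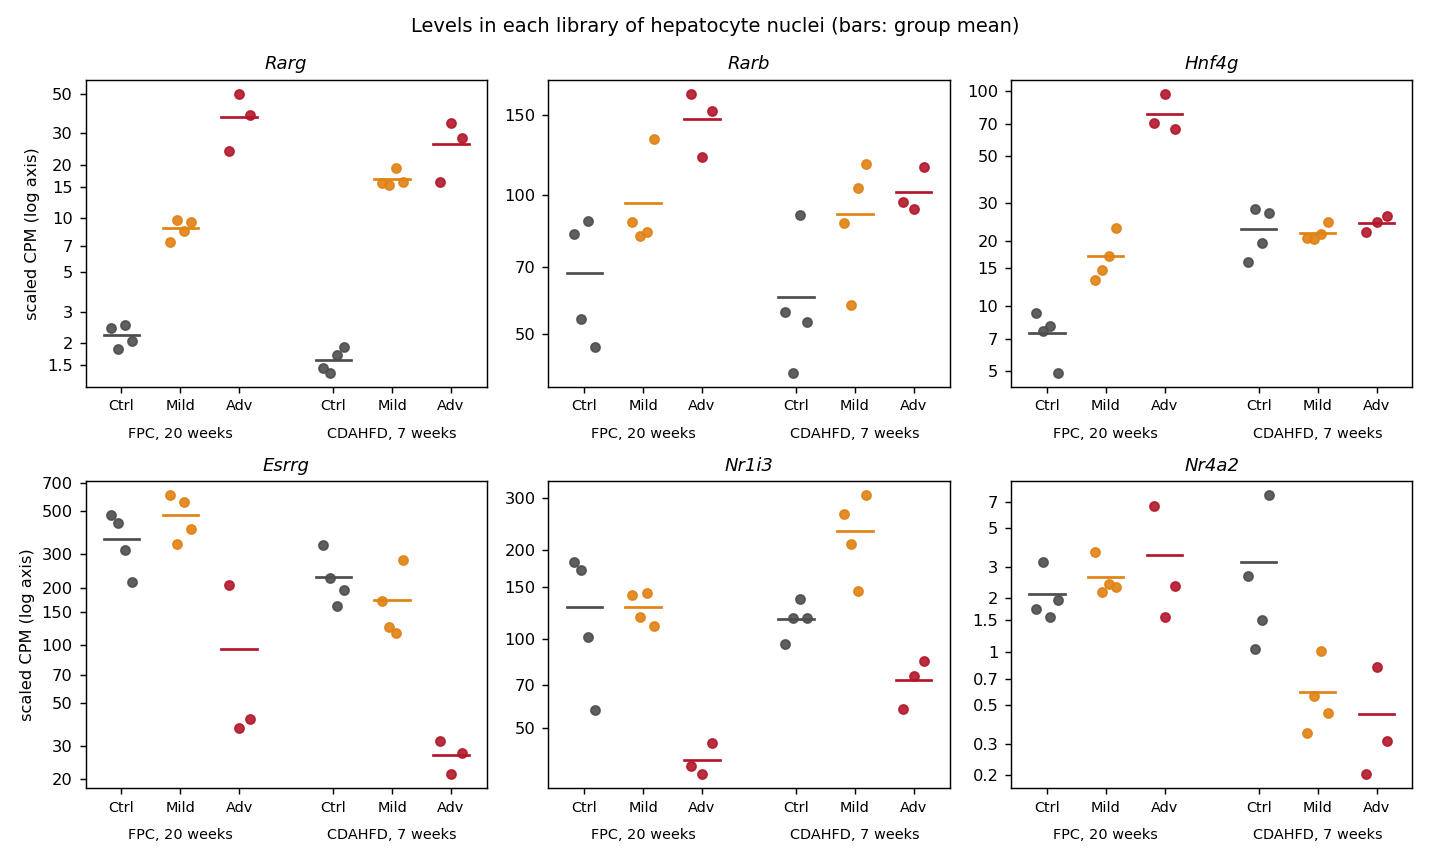
Scaled CPM (y axis, log scale) of Rarg, Rarb, Hnf4g, Esrrg, Nr1i3 and Nr4a2 in each hepatocyte nuclei library, by group (x axis; points are mice, bars are group means, 4 control, 4 mild and 3 advanced per diet). Rarg climbs already in mild disease in both diets, Hnf4g climbs with FPC only, and Esrrg and Nr1i3 drop in the advanced groups.

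The HNF4 genes parted. Hnf4a, which holds up the hepatocyte expression programme, was 469.7, 495, 493 and 614 scaled CPM in the FPC controls and 287, 269.7 and 328 in advanced disease. The CDAHFD libraries gave 541, 588, 466 and 673 in controls and 225, 408 and 388 in advanced disease. The advanced groups were below the controls without overlap, and the gene fell in both diets (-0.81 ± 0.16, adjusted p = 0.000984, and -0.74 ± 0.19, adjusted p = 0.00604), the CDAHFD call being lost with library totals. Of 10 hepatocyte markers, 7 fell and 0 rose with FPC (all genes 20.4% lower and 26.5% higher). With CDAHFD 4 fell and 1 rose (Cyp3a11, 2.11 ± 0.67; all genes 29.2% lower and 30.3% higher). The part of these markers was not tested.

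Hnf4g, the gamma paralogue best known from gut epithelium, was almost silent per length in FPC controls at 9.29, 7.62, 8.06 and 4.89 scaled CPM. It reached 13.3, 14.7, 17.1 and 23.1 in mild and 71.3, 97.2 and 66.6 in advanced disease. With CDAHFD the controls were 15.9, 28.3, 19.6 and 27.2 and the advanced libraries 22.1, 24.5 and 26.3, with overlapping groups and higher controls than in the FPC study. The FPC rise was 3.39 ± 0.24 (adjusted p = 1.84e-07), the CDAHFD value 0.09 ± 0.18 (adjusted p = 0.685), and the difference between diets was -3.24 ± 0.31 (adjusted p = 6.35e-06). Cholangiocyte markers rose in both diets, in FPC alongside Hnf4g and in CDAHFD without a call on it, and their part in the FPC rise was not tested.

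Of the orphan receptors, Nr5a2, Nr6a1, Nr2c1 and Nr2c2 fell in both diets. Nr5a2, the liver receptor homologue that drives bile acid and cholesterol genes, was 592, 590.5, 697 and 688 scaled CPM in the FPC controls and 499, 355 and 549.8 in advanced disease. In the CDAHFD study the values were 606, 649, 752 and 732, with 266, 277, 283 and 336 in mild and 243, 238 and 262 in advanced disease. All CDAHFD diseased libraries lay far below the controls, while the FPC groups were separated by less. The CDAHFD fall of -1.47 ± 0.13 (adjusted p = 2.58e-06) was larger than the FPC one of -0.46 ± 0.17 (adjusted p = 0.045) by a difference of -0.95 ± 0.21 (adjusted p = 0.00737). The FPC call was lost without any one of 7 libraries (Advanced_6826 and Advanced_6880, Mild_6888 and each control; adjusted p 0.0543 to 0.175) and with library totals.

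Nr6a1, the germ cell nuclear factor, was 437, 425, 471 and 499 scaled CPM in the FPC controls and 399, 286 and 322 in advanced disease. Its CDAHFD values were 412, 395, 317 and 369 in controls and 192, 170.5 and 187 in advanced disease, and the groups were separate in both diets. It fell by 0.45 ± 0.13 (adjusted p = 0.0148) and by 1.03 ± 0.12 (adjusted p = 1.75e-05) on the log2 scale, the FPC call being lost without Advanced_6880 or Advanced_6904 (adjusted p 0.0564 and 0.0648) and with library totals. An antisense gene overlaps 52.1% of the counted interval, and since the strand setting of the counting is not stated, its reads cannot be told apart from those of Nr6a1.

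Nr2c1 and Nr2c2, the testicular receptors that bind direct repeats mostly as repressors, fell together. Nr2c1 was 90.6, 96.4, 97.2 and 88.2 scaled CPM in the FPC controls and 70.9, 56.2 and 56.4 in advanced disease, and 106, 90.2, 88.4 and 64.8 in controls and 53.8, 49.9 and 51.3 in advanced disease with CDAHFD (-0.61 ± 0.12, adjusted p = 0.000951, and -0.76 ± 0.15, adjusted p = 0.000906). Nr2c2 was 191, 185, 197 and 205 scaled CPM in the FPC controls and 149.8, 136 and 152 in advanced disease, and 198, 162, 178 and 134 in controls and 132, 109.5 and 98.4 in advanced disease with CDAHFD (-0.41 ± 0.10, adjusted p = 0.0031, and -0.57 ± 0.15, adjusted p = 0.00539). Neither gene's groups overlapped in either diet, and all 4 calls were lost with library totals. The COUP factors Nr2f2 and Nr2f6 did not pass the test in advanced disease, with Nr2f2 at 25.4 ± 4.53 and 30.5 ± 3.04 with FPC and Nr2f6 at 47.4 ± 5.8 and 37.4 ± 10.5 with CDAHFD. Nr2f1 was close to absent from hepatocyte nuclei and was not tested there.

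Among the fatty acid receptors Ppara fell and Pparg rose. Ppara, which switches on fatty acid oxidation in fasting, was 2368, 2478, 1796 and 1945 scaled CPM in the FPC controls and 1442, 981 and 1031 in advanced disease. With CDAHFD the controls were 1438, 1944, 2119 and 1095 and the advanced libraries 812, 1052 and 1157. The FPC groups were separate, whereas the lowest CDAHFD control lay below the highest advanced library. The changes were -0.90 ± 0.19 (adjusted p = 0.00201) and -0.71 ± 0.24 (adjusted p = 0.0222), and the CDAHFD call was lost with library totals and without any one of Advanced_9845 and Advanced_9896 or Control_10110 and Control_9867 (adjusted p 0.0504 to 0.0861).

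Pparg, the receptor of adipogenesis and lipid storage, was 142, 98, 94.2 and 77.4 in FPC controls, 273, 154, 185 and 195 in mild and 194, 144 and 156 in advanced disease. For CDAHFD they were 65.4, 36.8, 31.6 and 42.1 in controls, 89.8, 81.3, 100 and 74.3 in mild and 153, 130 and 95.8 in advanced disease. Every diseased library was above every control of its study, though only barely for the lowest FPC ones. It rose by 0.68 ± 0.22 (adjusted p = 0.0215) and 1.52 ± 0.23 (adjusted p = 0.00016) on the log2 scale, the FPC call being lost without Advanced_6826 or Control_6852, Control_6952 or Control_6953, one at a time (adjusted p 0.0512 to 0.0885). Ppard, the broadly expressed paralogue, passed in neither diet (57.4 ± 5.09 and 65.9 ± 17.1 with FPC).

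The oxysterol receptors went different ways. Nr1h3 (LXR alpha), which controls cholesterol export and fatty acid synthesis, was 70.8, 72.5, 63.6 and 68.6 scaled CPM in the FPC controls and 47.3, 42.4 and 46.5 in advanced disease, and 95.8, 80.8, 81.6 and 114 in controls and 51.6, 68.1 and 64.3 in advanced disease with CDAHFD. All advanced libraries lay below all controls, and it fell by 0.60 on the log2 scale in each diet (-0.60 ± 0.10, adjusted p = 0.000242, and -0.60 ± 0.14, adjusted p = 0.00258), calls that library totals did not keep. Nr1h2 (LXR beta) was 13.3 ± 1.96 and 15.6 ± 4.63 with FPC (0.22 ± 0.24, adjusted p = 0.484) and rose with CDAHFD from 20.2 ± 2.18 to 32.7 ± 2.19 (0.70 ± 0.13, adjusted p = 0.000515).

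The bile acid receptor Nr1h4 (FXR) and its target Nr0b2 (SHP), which lacks a DNA-binding domain and represses other receptors, both fell. Nr1h4 was 1303, 1920, 990.2 and 1682 scaled CPM in the FPC controls and 940.5, 736 and 756 in advanced disease. CDAHFD mice had 1586, 1468, 1531 and 1890, already 776, 791, 729 and 899.8 in mild and 785, 538 and 722 in advanced disease. Controls and advanced libraries did not overlap, by a wide margin with CDAHFD and a narrow one with FPC. The changes were -0.86 ± 0.27 (adjusted p = 0.0177) and -1.25 ± 0.16 (adjusted p = 4.02e-05), and the FPC call was lost with library totals and without Advanced_6880 or Advanced_6904 or Control_6852 (adjusted p 0.0525 to 0.0613).

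Nr0b2 was 35, 27, 30.7 and 33.7 scaled CPM in the FPC controls and 6.23, 10.9 and 10.6 in advanced disease, with 6.39, 49.7, 16.4 and 16.1 in mild disease. With CDAHFD the controls were 19.4, 45.8, 38.8 and 17.3, mild libraries 43.1, 42.2, 39.9 and 27.8 and advanced ones 9.9, 16.7 and 17.1. The advanced groups were low throughout, the FPC mild mice were widely spread, and the CDAHFD gap to the lowest control was small. It changed by -1.78 ± 0.54 (adjusted p = 0.0184) and -1.05 ± 0.35 (adjusted p = 0.0208); the FPC call was lost without Advanced_6826 (adjusted p 0.0671), and the CDAHFD call with library totals and without Advanced_9845 or Control_10110 or Control_9867 (0.0503 to 0.0816).

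Of the xenobiotic receptors, Nr1i3 (CAR), which induces drug-metabolising enzymes, fell late. It was 182, 172, 102 and 57.8 in FPC controls, 141, 119, 144 and 111 in mild and 37.5, 34.9 and 44.5 in advanced disease. With CDAHFD it was 96.6, 118, 137 and 118 in controls, 265, 211, 146 and 307 in mild and 58, 75.3 and 84.7 in advanced disease. The CDAHFD mild mice were above every control, and the advanced mice of both diets below every control. Against control it fell by 1.72 ± 0.32 (adjusted p = 0.000777) and 0.69 ± 0.23 (adjusted p = 0.0207) on the log2 scale, the CDAHFD call being lost with library totals and without Advanced_9845 or Control_10110 (adjusted p 0.0518 and 0.0832). Its neighbour Tomm40l overlaps 21.4% of the counted interval. Nr1i2 (PXR) passed in neither diet, at 247 ± 30.1 and 198 ± 35.6 with FPC and 267 ± 145 and 196 ± 11.7 with CDAHFD. Its CDAHFD control mean was raised by Control_10113, at 482 scaled CPM beside 200, 172.5 and 212 in the others. The vitamin D receptor Vdr was too low in hepatocyte nuclei for a test.

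**Figure D3:**
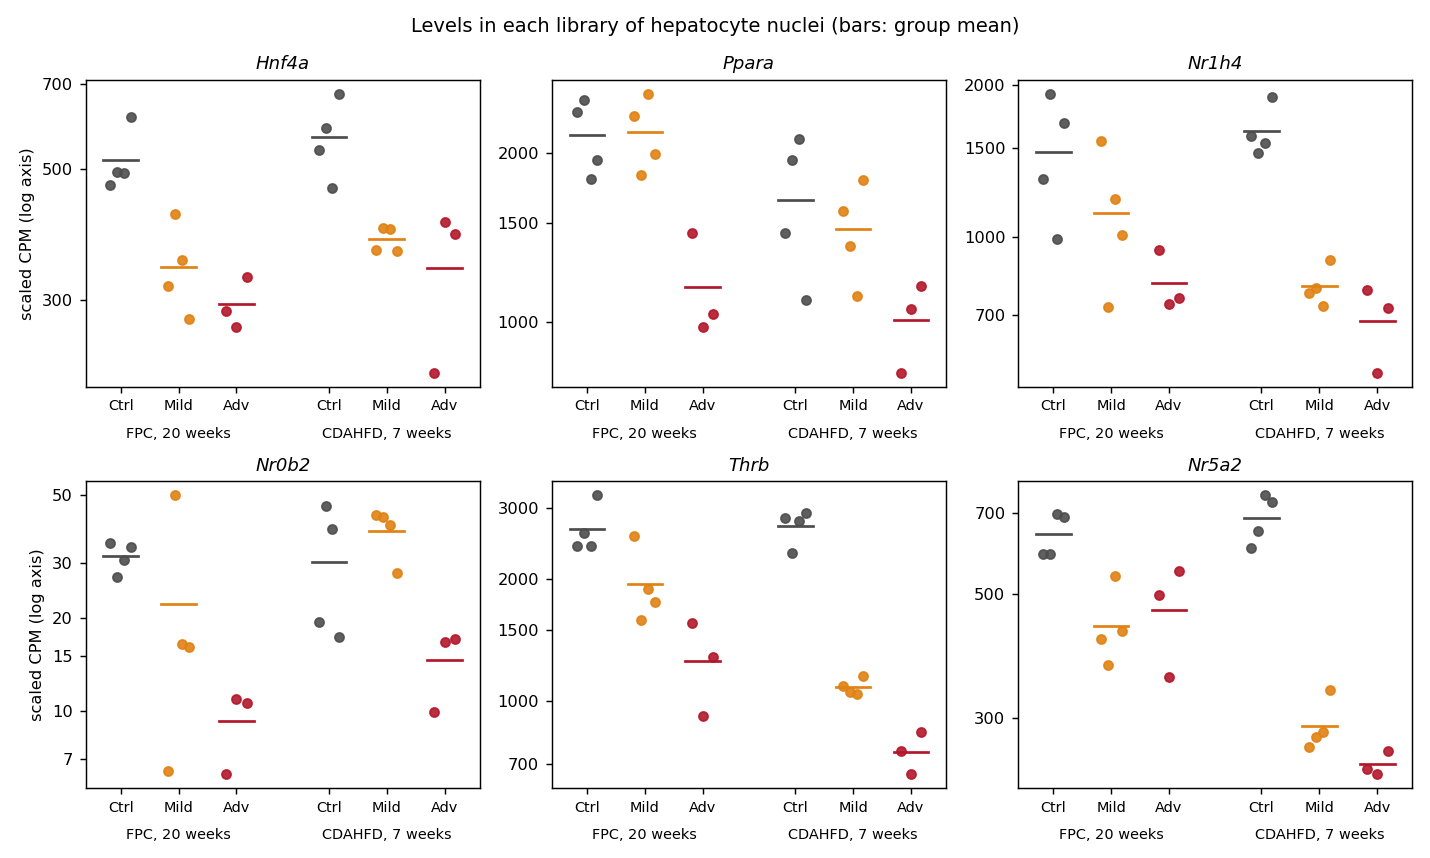
Scaled CPM (y axis, log scale) of Hnf4a, Ppara, Nr1h4, Nr0b2, Thrb and Nr5a2 in each hepatocyte nuclei library, by group (points are mice, bars are group means). Thrb, Nr1h4 and Nr5a2 are already below every control in CDAHFD mild disease, and Hnf4a and Ppara of the FPC advanced mice lie below all FPC controls.

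Of the hormone receptors, Thrb and Nr3c1 fell in both diets. Thrb, the thyroid hormone receptor that lowers liver lipid on activation, was 2417, 2605, 2414 and 3225 in FPC controls, 2560, 1588, 1891 and 1757 in mild and 1561, 918 and 1286 in advanced disease. The CDAHFD libraries gave 2834, 2323, 2785 and 2922 in controls, 1090, 1053, 1045 and 1158 in mild and 753, 660.1 and 838 in advanced disease. Advanced and control libraries were well apart in both, and every CDAHFD mild library was also below every control. Thrb fell by 1.09 ± 0.22 (adjusted p = 0.0013) and 1.86 ± 0.14 (adjusted p = 9.44e-07) on the log2 scale. Thra, its low paralogue here, passed in neither diet (15.1 ± 3.94 and 16.8 ± 4.76 with FPC).

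Nr3c1, the glucocorticoid receptor, was 514, 449, 554 and 550 scaled CPM in the FPC controls and 400.2, 290.2 and 269 in advanced disease. In the CDAHFD study the values were 495, 424, 426 and 451 in controls and 228, 225 and 220.1 in advanced disease, with a narrow spread. The groups were separate in both diets, and the falls were -0.69 ± 0.15 (adjusted p = 0.00229) and -1.0 ± 0.10 (adjusted p = 6.7e-06), of which library totals kept the second. Nr3c2, the mineralocorticoid receptor, fell with CDAHFD from 1426 ± 317 to 752 ± 82.8 (-0.92 ± 0.18, adjusted p = 0.00086), a call lost with library totals, and was 1504 ± 111 and 1069 ± 277 with FPC (-0.49 ± 0.22, adjusted p = 0.0789). The oestrogen receptor Esr1 passed in neither, at 217 ± 47.6 and 316 ± 97.7 with FPC and 203 ± 37.9 and 160.5 ± 28.2 with CDAHFD.

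The oestrogen-related receptors act without a steroid ligand on mitochondrial and metabolic genes. Esrrg was 477, 435, 314 and 213 in FPC controls, 606, 336, 562 and 407 in mild and 207, 37.2 and 41 in advanced disease. For CDAHFD they were 335, 224, 159.9 and 194 in controls, 171, 125, 116 and 280.3 in mild and 31.6, 21.2 and 27.3 in advanced disease. Advanced CDAHFD libraries were all far below the rest, while one FPC advanced mouse, Advanced_6826, stayed just under the lowest control. The changes were -1.92 ± 0.58 (adjusted p = 0.0194) and -3.09 ± 0.36 (adjusted p = 2.77e-05), and the FPC call was lost without Advanced_6880 or Advanced_6904 (adjusted p 0.0591 and 0.0601). Esrra fell with FPC from 45.3 ± 3.39 to 29.4 ± 6.52 (-0.63 ± 0.15, adjusted p = 0.00335), a call library totals did not keep, and was 47.5 ± 4.07 and 41.3 ± 10.4 with CDAHFD (-0.20 ± 0.17, adjusted p = 0.336).

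The receptors of the circadian clock separated by diet. Nr1d1 and Nr1d2 (REV-ERB alpha and beta), repressors that read haem, fell with FPC, Nr1d1 from 152 ± 28.7 to 76.5 ± 26.7 (-0.99 ± 0.24, adjusted p = 0.00427) and Nr1d2 from 299 ± 38.2 to 201 ± 31.4 (-0.57 ± 0.14, adjusted p = 0.00573), both calls being lost with library totals. With CDAHFD Nr1d1 was 148 ± 60.2 and 191 ± 46.6, and Nr1d2 233 ± 17 and 239 ± 27.6. Their activating counterpart Rora fell with CDAHFD from 905 ± 130 to 445 ± 58.8 (-1.02 ± 0.17, adjusted p = 0.000345) and was 954 ± 49.1 and 1228 ± 113 with FPC (0.36 ± 0.16, adjusted p = 0.0882). Times of day of the collections are not given in the sources used here. Thra overlaps 14.4% of the counted Nr1d1 interval.

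The NR4A genes, immediate early factors with no known natural ligand, were low in hepatocyte nuclei. Nr4a2 was 2.67, 1.03, 1.52 and 7.65 in CDAHFD controls, 0.347, 0.561, 1 and 0.447 in mild and 0.202, 0.821 and 0.314 in advanced disease. With FPC it was 1.74, 3.21, 1.57 and 1.95 in controls, 3.64, 2.17, 2.4 and 2.32 in mild and 6.62, 1.57 and 2.36 in advanced disease. The CDAHFD groups were separate, with one control, Control_10113, well above the others, and the FPC groups overlapped. It fell with CDAHFD (-2.88 ± 0.77, adjusted p = 0.00656), and with FPC the value was 0.76 ± 0.44 (adjusted p = 0.176). Nr4a1 and Nr4a3 passed in neither diet, and Nr4a1 was 9.16 ± 15.9 in FPC controls, a spread larger than its mean.

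Comparisons by stage showed which receptors had moved in mild disease. They share control or diseased mice with the comparisons above, so values are set side by side only. Against control, 3 members rose and 8 fell in FPC mild disease (all genes 21.8% and 11.3%), and 5 rose and 13 fell in CDAHFD mild disease (all genes 29.6% and 26.7%). Library totals gave 6 and 0 with FPC (all genes 31.9% and 4.45%) and 11 and 7 with CDAHFD (all genes 44.9% and 13.1%). The FPC count of 11 became 7 without Control_6952. The 8 that fell with FPC were Hnf4a, Nr5a2, Nr3c1, Nr6a1, Nr2c1, Nr2c2, Esrra and Nr1d2, and none of them passed with library totals. Rarg rose by 1.99 ± 0.22 and 3.36 ± 0.24, and Pparg by 0.97 ± 0.21 and 0.97 ± 0.22, while Thrb fell in CDAHFD mild disease (-1.32 ± 0.12) and Esrrg was 0.41 ± 0.51 (adjusted p = 0.58) and -0.40 ± 0.29 (adjusted p = 0.268). Members called in CDAHFD mild disease and not in advanced included Esr1 (-0.69 ± 0.16, adjusted p = 0.00376), Nr2f6 (-0.57 ± 0.18, adjusted p = 0.0161), both lost with library totals, and Nr1d1, which was higher (0.80 ± 0.26, adjusted p = 0.0231) but lost without Control_9862 or Mild_9894 (adjusted p 0.0645 and 0.0585).

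From mild to advanced disease 2 members rose and 5 fell with FPC (all genes 12.7% and 7.49%), and library totals gave 4 and 4 (all genes 16.6% and 3.96%). With CDAHFD 0 rose and 2 fell (all genes 1.3% and 1.52%). The FPC count became 11 without Mild_6825, and the CDAHFD count 4 without Control_10113. Both CDAHFD genes, Esrrg (-2.70 ± 0.35, adjusted p = 0.00364) and Nr1i3 (-1.68 ± 0.24, adjusted p = 0.005), also fell with FPC (-2.32 ± 0.59, adjusted p = 0.0184, and -1.72 ± 0.32, adjusted p = 0.00248), the FPC call on Esrrg being lost without Advanced_6880 or Advanced_6904 (adjusted p 0.0549 and 0.0621). These are the genes whose windows were printed with TGACTCA, a match seen after their values were known. With CDAHFD, Nr1i3 went opposite ways in the successive stages, up by 0.98 ± 0.21 (adjusted p = 0.00193) in mild disease and then down. Ppara (-0.92 ± 0.19), Nr1h3 (-0.47 ± 0.10) and Rxra (-0.84 ± 0.23; lost with library totals and without Advanced_6826 or Advanced_6904, adjusted p 0.0682 and 0.0512) were the others that fell with FPC at this step, and Rarg (2.08 ± 0.22) and Hnf4g (2.20 ± 0.23) rose.

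The diets were compared by the difference of their advanced changes, CDAHFD minus FPC, over all 22 hepatocyte nuclei libraries. For 2 of 36 members it was positive and for 5 negative (all genes 4.5% and 7.36%). The positive ones were Nr1d1 (1.41 ± 0.39, adjusted p = 0.0253) and Nr1d2 (0.66 ± 0.18, adjusted p = 0.0201), which were lower with FPC. The negative ones were Nr4a2 (-3.59 ± 0.90, adjusted p = 0.015), Hnf4g, Rora (-1.33 ± 0.23, adjusted p = 0.00186), Nr5a2 and Nr6a1 (-0.52 ± 0.17, adjusted p = 0.0488). The count of 7 became 3 without FPC Advanced_6826 and 4 without CDAHFD Advanced_9896. Without the former, Nr1d1, Nr1d2, Nr4a2 (adjusted p 0.0602) and Nr6a1 no longer passed, and Nr6a1 was lost without any one of 18 libraries.

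In whole liver nuclei, where in such bulk samples fewer cells of a type and less RNA per cell cannot be told apart, all 38 members could be tested. In advanced disease 8 rose and 20 fell with FPC (all genes 31.3% and 28.0%), and 5 rose and 17 fell with CDAHFD (all genes 29.7% and 25.9%). Library totals gave 13 and 14 (all genes 51.5% and 10.8%) and 14 and 7 (all genes 52.0% and 10.7%). Called in both diets and kept with library totals were Rarg, Nr4a3, Vdr and Ppard on the higher side and Nr0b2, Nr1h4, Nr1i3, Nr5a2, Hnf4a, Thrb and Esrrg on the lower side. Hnf4g rose here with FPC too (2.52 ± 0.17, adjusted p = 1.47e-07), and Pparg with CDAHFD (2.17 ± 0.17, adjusted p = 3.73e-07). Nr1i2, which passed in neither diet in hepatocyte nuclei, fell in whole liver in both (-0.66 ± 0.12 and -0.94 ± 0.30), calls lost with library totals and, for CDAHFD, without Advanced_10104 or Advanced_9896 (adjusted p 0.0612 and 0.0587). Without Control_10113 the CDAHFD fall of Nr1i2 was -0.50 (adjusted p = 0.0115). The FPC call on Ppard was lost without any one of 8 libraries (each advanced mouse, Control_6816, Control_6852 and Control_6952, and Mild_6887 and Mild_6888; adjusted p 0.0567 to 0.133), and the CDAHFD call without any one of 8 others (Advanced_9845 and Advanced_9896, Control_10113, Control_9862 and Control_9867, and Mild_10102, Mild_9853 and Mild_9894; adjusted p 0.061 to 0.159). Rora rose with FPC (0.32 ± 0.13, adjusted p = 0.0456) and fell with CDAHFD (-0.49 ± 0.14, adjusted p = 0.00865), the one member called in opposite directions in the diets' whole livers. The FPC call on Rora was lost without any one of 9 libraries (each advanced and control mouse and Mild_6825 and Mild_6888; adjusted p 0.0534 to 0.138), and the CDAHFD call with library totals.

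Vdr, scarcely seen in hepatocyte nuclei, was 0.0501, 0.0716, 0.118 and 0.0722 scaled CPM in FPC controls and 0.845, 0.944 and 1.18 in advanced disease of the whole liver (3.55 ± 0.39, adjusted p = 6.51e-06). CDAHFD mice had 0.098, 0.146, 0.252 and 0.216 in controls and 1.16, 1.09 and 1.27 in advanced disease (2.71 ± 0.34, adjusted p = 2.45e-05). The groups were far apart, at levels of few reads. Other annotated genes overlap 38.6% of the counted interval of Vdr, and their reads cannot be told apart from its own. Nr4a3 was 0.2, 0.215, 0.0789 and 0.289 in FPC controls and 6.93, 11 and 5.03 in advanced disease (5.33 ± 0.42, adjusted p = 4.58e-07), and 0.147, 0.582, 0.757 and 5.05 in controls and 7.67, 9.1 and 7.41 in advanced disease with CDAHFD (2.25 ± 0.71, adjusted p = 0.0196). The CDAHFD call was lost without Advanced_9896 (adjusted p 0.0541). One CDAHFD control, Control_10113, stood close to the advanced mice, and the same mouse was high for Nr4a2 in hepatocyte nuclei. In mild disease 6 members rose and 13 fell in whole liver with FPC (all genes 25.0% and 18.2%; library totals 11 and 3, all genes 40.7% and 6.52%), and 3 rose and 13 fell with CDAHFD (all genes 27.7% and 24.5%; library totals 13 and 6, all genes 46.7% and 8.94%).

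Comparing the fractions in control mice shows in which nuclei the receptors' RNA was found. Without regard to the mouse, the hepatocyte nuclei of FPC controls had 0 members above and 2 below the whole liver level (all genes 1.35% and 16.2%), and those of CDAHFD controls 5 above and 3 below (all genes 14.6% and 16.4%). Library totals turned the CDAHFD split to 0 and 4 (all genes 0.685% and 17.9%). Both fractions came from the same mice, and with the mouse as a block the counts were 12 higher and 4 lower (all genes 21.4% and 18.8%) and 13 higher and 4 lower (all genes 25.9% and 17.3%). Without CDAHFD Control_9862 and Control_9867, whose fractions did not deviate together, the blocked CDAHFD counts were 5 and 3 (all genes 12.1% and 15.4%). Without the block, the CDAHFD count of 8 became 5 without Control_10113 or Control_9862, and the FPC count of 2 became 4 without Advanced_6826.

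Rarg was depleted from control hepatocyte nuclei in both studies (-1.97 ± 0.20, adjusted p = 1.01e-07, and -2.37 ± 0.23, adjusted p = 4.49e-08), and so was Nr2f1 (-3.78 ± 0.74, adjusted p = 0.000441, and -2.60 ± 0.68, adjusted p = 0.00609). Nr2f1 had 0, 0, 4 and 4 counts in the CDAHFD control hepatocyte nuclei. In the blocked fit without Control_9862 and Control_9867, the mice at 0, its CDAHFD call was lost (-1.79, adjusted p = 0.0686). Rarb stood at -0.44 ± 0.23 (adjusted p = 0.215) and -0.58 ± 0.23 (adjusted p = 0.0646), and in the blocked fit it was called, at -0.45 ± 0.08 (adjusted p = 0.000744) and -0.60 ± 0.11 (adjusted p = 0.000908). With the block, Ppara (0.33 and 0.38), Nr1i2 (0.25 and 0.30) and Nr1d2 (0.22 and 0.35) were higher in hepatocyte nuclei of both studies by these log2 amounts, beside a median over all genes of 0.11 and 0.19, and these calls were kept without Control_9862 and Control_9867. The CDAHFD calls on Hnf4a, Nr1h4, Nr6a1 and Esrra, higher with the block in both studies, were lost without those 2 mice (adjusted p 0.0757, 0.065, 0.0744 and 0.0743). Vdr was lower in the CDAHFD hepatocyte nuclei (-3.14 ± 1.03, adjusted p = 0.0252), with 1 count in the 4 controls against 14 in whole liver, a ratio of 8.24% (exact 95% interval 0.195% to 54.1%, counting error only), and the call was lost without Control_10110, Control_10113 or Control_9862 (adjusted p 0.0597 to 0.111).

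The distribution of Rarg between the fractions moved with disease. With scaling over all 22 libraries of a study, its hepatocyte level was 26% ± 6 (SD) of the whole liver level in FPC controls, 55.3% ± 4.68 in mild and 103% ± 24.6 in advanced disease. With CDAHFD it was 19.9% ± 4.6, 75.3% ± 10.1 and 113% ± 41.1. The advanced Rarg ratios of single mice ran from 75.02% to 120.4% with FPC and from 69.95% to 151.8% with CDAHFD. Endothelial markers lay between 10% and 19.2% by group mean, while the summed cholangiocyte markers in advanced disease were 4162 scaled CPM in hepatocyte nuclei and 2832 in whole liver with FPC, and 1504 and 1551 with CDAHFD, each fraction scaled on its own. The part of the cholangiocyte markers in the Rarg ratio was not tested. In whole liver Rarg was 8.36, 11.1, 10.7 and 9.45 in FPC controls and 33.3, 43.4 and 34.2 in advanced disease, and 7.11, 10.9, 11.2 and 9.58 in controls and 24.7, 32.1 and 20.7 in advanced disease with CDAHFD. The change in hepatocyte nuclei exceeded that in whole liver by 2.03 ± 0.29 (adjusted p = 0.000158) and 2.52 ± 0.33 (adjusted p = 4.31e-05) on the log2 scale.

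Over the members, the fractions' changes differed for 1 in each direction with FPC (all genes 2.83% and 0.984%) and 1 in each direction with CDAHFD (all genes 3.63% and 6.62%). Beside Rarg these were Nr4a3 with FPC (-3.57 ± 0.98, adjusted p = 0.0422), which rose in whole liver while its hepatocyte share went from 107% ± 130.4 to 13.5% ± 6.47, and Nr3c1 with CDAHFD (-0.65 ± 0.15, adjusted p = 0.00691), which fell less in whole liver (-0.44 ± 0.13, adjusted p = 0.0103; lost without Advanced_9845, adjusted p 0.0626). The Nr4a3 call was lost with RLE scaling and without any one of 8 mice (Advanced_6826, Control_6852, Advanced_6880, Mild_6886, Mild_6887, Mild_6888, Advanced_6904 and Control_6953; adjusted p up to 0.582), and the Nr3c1 call without Advanced_10104 (adjusted p 0.0592). With library totals the whole liver change of Nr3c1 was 0.02. Blocked by mouse, FPC gave 4 higher (Rarg, Rarb, Hnf4g and Nr5a2) and 2 lower (Nr4a3 and Esrra; all genes 6.11% and 3.31%), and CDAHFD gave 4 higher (Rarg, Rxrg, Nr1i2 and Nr1i3) and 7 lower (Nr1h3, Nr2c2, Nr3c1, Nr4a3, Nr6a1, Ppard and Rora; all genes 7.36% and 10.6%). Nr4a3 then stood at -3.26 ± 0.74 (adjusted p = 0.0128) and -2.41 ± 0.65 (adjusted p = 0.0225). The blocked CDAHFD difference includes Control_9862 and Control_9867, whose fractions did not deviate together. It was not fitted without them, so its calls depend on these 2 pairs.

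**Figure D4:**
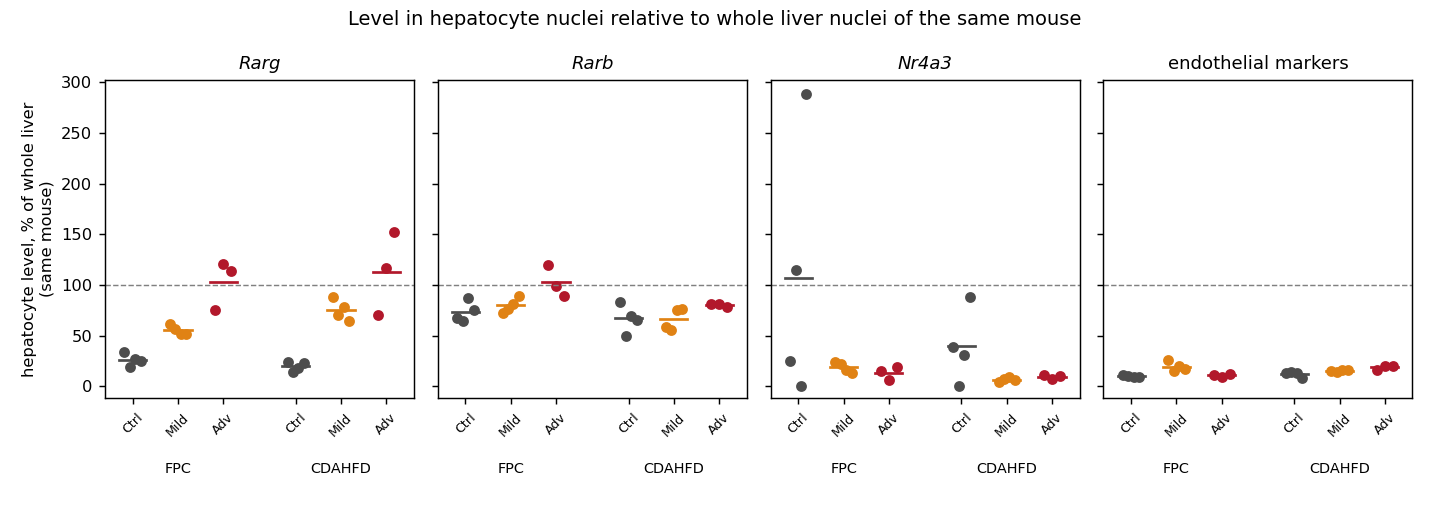
Level in hepatocyte nuclei as a percent of the level in whole liver nuclei of the same mouse (y axis) for Rarg, Rarb, Nr4a3 and the summed endothelial markers, by disease group and diet (points are mice, bars are means, the dashed line is 100%). By group mean, Rarg moves from 26.0% (FPC) and 19.9% (CDAHFD) in controls to near the dashed line in advanced disease, with single advanced mice from 69.95% to 151.8%. The endothelial markers lie between 10% and 19.2% by group mean.

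Few of the receptors outside the list of 38 had enough counts for a test. Of these 11 genes, 5 could be tested with FPC (1 rose, 2 fell) and 4 with CDAHFD (0 rose, 3 fell). Over all genes, 26.5% were higher and 20.4% lower with FPC, and 30.3% and 29.2% with CDAHFD. Library totals made these shares 44.7% and 7.99% with FPC and 49.6% and 12.3% with CDAHFD. Esrrb, the remaining oestrogen-related receptor, fell in both (-1.43 ± 0.43 and -2.27 ± 0.35), the FPC call being lost with library totals and without Control_6816 or Advanced_6904 (adjusted p 0.0517 and 0.0644). The medians of the tested genes were -0.57 and -1.74, and library totals gave 1 higher and 0 lower with FPC and 0 higher and 2 lower with CDAHFD. Among 10 coactivators, 5 fell and 0 rose in each diet. Ppargc1a, the PPAR gamma coactivator of energy metabolism, fell in both (-0.50 with FPC and -1.17 ± 0.18 with CDAHFD), the FPC call being lost with library totals. With library totals the coactivator counts became 2 higher and 1 lower with FPC and 4 higher and 3 lower with CDAHFD. The coactivators' medians of -0.32 and -0.37 became 0.08 and 0.12. The 8 corepressors (median 0.14 and 0.00) gave 2 higher and 0 lower with FPC and 2 higher and 1 lower with CDAHFD, including Gps2 (1.05 ± 0.15 with CDAHFD) and Tbl1x (-0.98 ± 0.12 with CDAHFD). Library totals turned the corepressor counts to 5 higher and 0 lower with FPC and 5 higher and 1 lower with CDAHFD (median 0.55 and 0.49).

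Target genes were read beside their receptors by counts, and none of the lists was tested as a whole. For these lists and those of the next paragraph, the shares over all genes were 26.5% higher and 20.4% lower with FPC. With CDAHFD they were 30.3% and 29.2%. Library totals made them 44.7% and 7.99% with FPC and 49.6% and 12.3% with CDAHFD. Of 16 classical Ppara targets (median 0.13 and 0.24), 4 rose and 4 fell with FPC and 4 rose and 2 fell with CDAHFD, Fgf21 (4.91 ± 0.68 and 3.59 ± 0.67), Cyp4a14 (3.50 ± 1.11 and 3.16 ± 0.86) and Pdk4 (1.70 ± 0.52 and 2.82 ± 0.65) rising in both. With library totals the Ppara target counts became 8 higher and 1 lower with FPC and 6 higher and 1 lower with CDAHFD (median 0.53 and 0.73). The FPC calls were lost without Control_6852 or Advanced_6880 for Cyp4a14 (adjusted p 0.0589 and 0.0601) and without Advanced_6826 or Advanced_6904 for Pdk4 (0.0504 and 0.0525). Of 8 Pparg targets of lipid storage (median 2.53 and 2.61), 6 rose with FPC and 4 with CDAHFD and none fell (7 and 6 tested), led by the lipid droplet gene Cidec (5.11 ± 0.41 and 6.24 ± 0.47). For 10 LXR targets (median -0.06, which library totals turned to 0.34, and -1.17) the counts were 3 higher and 2 lower with FPC and 2 higher and 7 lower with CDAHFD, Abcg1 rising in both (2.73 ± 0.34 and 1.70 ± 0.32). Of 10 Nr1h4 and Nr0b2 targets (9 tested, median -1.34 and -1.73), 1 rose and 6 fell with FPC and 2 rose and 6 fell with CDAHFD: the bile acid importer Slc10a1 fell (-3.40 ± 0.47 and -4.42 ± 0.36) and the basolateral exporter subunit Slc51b rose (1.60 ± 0.41 and 2.98 ± 0.39). The list mixes genes that these receptors raise, such as Slc51b, with genes that they lower, such as Slc10a1. Its counts and median are therefore no measure of the receptors' activity. The 13 measured Nr1i3 and Nr1i2 targets (12 tested with CDAHFD, median -0.47 and 1.54) gave 2 higher and 4 lower with FPC and 6 higher and 2 lower with CDAHFD, Cyp2c29 falling (-2.32 ± 0.35 and -4.73 ± 1.12) and Abcb1a rising (2.56 ± 0.29 and 2.96 ± 0.29).

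Of 11 Hnf4a targets (median -0.84 and -1.32), 8 fell with FPC and 7 with CDAHFD, and 1 rose in each, Apoa4 (3.64 ± 0.23 and 3.44 ± 0.36). The urea cycle gene Otc fell (-2.14 ± 0.23 and -2.35 ± 0.20). Of 10 genes of retinoid metabolism and RAR response (8 and 7 tested, median -0.20, which library totals turned to 0.19, and -1.21), 2 rose and 3 fell with FPC and 1 rose and 4 fell with CDAHFD, the plasma retinol carrier gene Rbp4 falling in both (-1.42 ± 0.15 and -1.21 ± 0.12). Of 5 thyroid hormone targets (median -1.35 and -1.01) 1 rose and 3 fell in each diet, Thrsp falling (-2.48 ± 0.77, lost without Advanced_6880 or Advanced_6904 with adjusted p 0.0611 and 0.073, and -7.67 ± 1.14) and Hr rising (4.37 ± 0.46 and 5.27 ± 0.63). Of 13 Nr3c1 targets (median -0.84, and -0.19, which library totals turned to 0.32), 3 rose and 3 fell with FPC and 2 rose and 4 fell with CDAHFD, Tsc22d3 falling (-2.15 ± 0.15 and -3.23 ± 0.66) and the metallothionein gene Mt1 rising (4.52 ± 0.86 and 4.99 ± 0.55). Of 6 REV-ERB and ROR targets (median -1.13 and -1.89) 4 fell in each diet and 0 rose, Elovl3 (-4.86 ± 1.25 and -5.27 ± 0.93) and Cyp7b1 (-4.16 ± 1.11 and -4.26 ± 0.62) the most. REV-ERB represses such targets and ROR activates them, so their direction alone does not point to either. The 3 tested genes of vitamin D metabolism (of 5; median -1.17 and -1.20) fell in each diet, Cyp27a1 (-1.65 ± 0.18 and -1.20 ± 0.17) included. Of 8 immediate early genes (7 tested, median 0.58 and 1.80), the class to which the NR4A genes belong, 1 rose with FPC and 5 with CDAHFD, Atf3 in both (3.47 ± 0.85 and 4.52 ± 0.75).

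The authors' deposited table covers 35 of the members, and its calls are set beside those made here. The shares over all its genes were not counted. In it 22 passed an adjusted p of 0.05 in FPC advanced against control hepatocyte nuclei, 4 higher and 18 lower, and 21 of these were also called here in the same direction. The remaining one was Nr3c2, with a log2 fold change of -0.51 and adjusted p 0.0377 in the authors' deposited table. For CDAHFD the authors' deposited table had 19 members past the same threshold, 4 higher and 15 lower, all 19 called here too, and Nr1i3 was called here only (-0.66, adjusted p 0.0541 in the authors' deposited table).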

How the data were processed

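RNA of hepatocyte nuclei and of whole liver nuclei from 22 mice was sequenced as 50 bp paired-end reads from a stranded kit without poly-A selection, per the labels' protocols. The deposited values were raw read counts per RefSeq identifier, and the submitters' processing notes name STAR 2.4.2a, DESeq2 1.24.0 and mm10. The counting tool and its strand setting are not given in the sources used here. In 94.7% of the rows of the authors' table the counted length is the whole gene, so intron reads are included. The authors' deposited comparison table gave log2 fold changes and adjusted p-values per gene for hepatocyte nuclei. Symbols came from that table (13147 identifiers) or RefSeq (6879), and 79 identifiers had none.

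Counts were tested with the edgeR 4.0.16 quasi-likelihood F-test (R 4.3.3, TMM scaling, filterByExpr, Benjamini-Hochberg adjustment over all genes tested, threshold 0.05), and the standard error is the log2 fold change divided by the root of F. Disease groups were compared within a fraction and study over 11 libraries, fractions and their interaction with disease over the 22 libraries of a study, and diets over the 22 hepatocyte nuclei libraries. The test was checked on counts simulated without a broad shift between groups, so the check does not bear on the choice of scaling. Every gene was in the fit, and the members' results are reported. Nothing in the labels says whether mice were housed or processed together. No 2 libraries of a group were alike: all 60 pairs differed by far more than counting noise (chi-square over its degrees of freedom, 20 to 272).

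Both fractions share the mouse number, per the labels, so the numbers pair the libraries. Over 12388 genes, 20 of the 22 mice had their own partner as the best correlated library, with a correlation over 0.1, and CDAHFD Control_9862 and Control_9867 did not. The alternatives were other size factors, filters, DESeq2 1.42.0, only the groups compared, each library left out, the mouse as a block and, added after seeing the data, library totals.

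The members and all gene lists were chosen with earlier results of these data known. Values in every library are given for members called in the same direction in both diets (advanced against control hepatocyte nuclei) and for the 3 called members with the largest change in each diet. From each companion list up to 3 genes called in both diets in the same direction with the largest mean change were eligible to be named. Where a list had none, as with the corepressors, genes called in 1 diet were eligible. Promoter windows were read from RefSeq for build GRCm38.p6.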

Additional observations from a re-analysis of the deposited data

Results flagged for a closer look

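In 5 of the 144 sets of 4 mice examined, one library lay far from the other three by Dixon's criterion; chance alone gives about 1 in 20. In whole liver, Nr1h4 was 1800 scaled CPM in CDAHFD Control_10113, Nr3c1 was 420 in CDAHFD Mild_9852, and Pparg was 281 in FPC Mild_6825, each the highest of its group. In hepatocyte nuclei, Rarb was 132 in FPC Mild_6888 and Nr4a2 was 3.64 in FPC Mild_6825, again the highest of the group.

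For a few members the change in advanced disease differed between the fractions, by a test of the difference itself (edgeR, log2 scale, hepatocyte minus whole liver nuclei). Rarg had a larger rise in hepatocyte nuclei with both FPC (2.03) and CDAHFD (2.52). Nr4a3 differed by -3.57 with FPC, and Nr3c1 by -0.65 with CDAHFD.

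Between diets (CDAHFD minus FPC, hepatocyte nuclei), the tested differences were -3.59 for Nr4a2, -3.24 for Hnf4g, -1.33 for Rora, -0.95 for Nr5a2, -0.52 for Nr6a1, 0.66 for Nr1d2 and 1.41 for Nr1d1. Diet and feeding time cannot be told apart in these differences.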

How the results depend on the processing

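Single called values were recomputed in 4596 settings: 4216 kept direction and call, 373 lost the call and 7 reversed, and 156 of the 266 single results kept their call in every setting. All 7 reversals came with library totals: Ncoa3 (0.0723) and Lpcat3 (0.0044) in FPC advanced hepatocyte nuclei, Nr2c2 in FPC advanced (0.0217) and mild (0.0579) whole liver, Esrra in FPC advanced whole liver (0.0021), and Nr3c1 in CDAHFD advanced (0.0192) and mild (0.0469) whole liver. Of 266 counts of called members, 237 stayed within 1.5 times. With library totals the count was 6 in FPC mild hepatocyte nuclei and 4 for the fractions of CDAHFD controls. For CDAHFD advanced against mild, DESeq2 and a fit of only those groups gave 4. RLE scaling gave 1 for the FPC interaction of fraction and disease and 5 for the fractions of CDAHFD controls, where DESeq2 also gave 5. The cause was not tested.

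The mouse as a replicate block raised the counts to 16 (fractions of FPC controls), 17 (fractions of CDAHFD controls), 6 (FPC interaction) and 11 (CDAHFD interaction). Both CDAHFD counts include Control_9862 and Control_9867, whose fractions did not deviate together.

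Leaving out each library in turn gave 18 to 23, 7 to 12 and 5 to 11 members for FPC hepatocyte nuclei (advanced against control, mild against control, advanced against mild) and 17 to 21, 17 to 21 and 2 to 4 for CDAHFD. Whole liver gave 23 to 28 (FPC advanced), 14 to 21 (FPC mild), 19 to 23 (CDAHFD advanced) and 13 to 17 (CDAHFD mild). Leaving out each mouse gave 2 to 4 and 5 to 9 for the fractions of FPC and CDAHFD controls and 1 to 2 and 1 to 4 for the interactions, and each library 3 to 9 for the diet difference. The interaction counts of 1 came without FPC Advanced_6826, Control_6852, Advanced_6880, Mild_6886, Mild_6887, Mild_6888, Advanced_6904 or Control_6953 and without CDAHFD Advanced_10104, and 4 without Control_9867.

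Vdr, Nr2f1 and Nr4a3 rest on few reads in hepatocyte nuclei: over the 4 FPC controls Vdr had 3 counts against 7 in whole liver (51.5%, exact 95% interval 8.59% to 225%), and Nr2f1 3 against 58 (6.21%).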
